A study of Homo sapiens with 6 samples.

Results

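The miR-193 and miR-365 clusters were represented by 7 mature microRNAs (miRNAs), selected on their names, out of 2588 miRNAs listed in the count table. All 7 had enough counts to be tested, among 800 tested miRNAs. The names were chosen with the values of these arms in the m7G-RIP and input libraries already known, so those values are given here as a description and without a test. The libraries came from Caco-2 cells, an established human colorectal adenocarcinoma line, grown in a single culture condition with no genetic change or treatment that set the groups apart. The study asked which miRNAs carry internal N7-methylguanosine (m7G), a guanosine with an added methyl group. One group of 3 libraries was made from the input RNA, and the other group of 3 from heat-denatured RNA immunoprecipitated with an anti-m7G antibody (m7G-RIP). No library from a non-specific antibody was analysed here, so the background of the immunoprecipitation itself was not measured.

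A miRNA gene is transcribed as a long primary RNA that folds into a hairpin. Drosha and then Dicer cut the hairpin into a duplex of a 5p and a 3p arm, and one arm is usually loaded into Argonaute while the other is degraded. Bases 2 to 8 of the loaded arm, the seed, pair with target mRNAs. In miR-193a, miR-193b and the miR-365 genes the arms therefore share a precursor but present different sequences, and the 3p arms of miR-193 and miR-365 are the ones usually described as target-repressing. miR-193a-3p and miR-193b-3p are widely described as growth-suppressing miRNAs in epithelial cancers.

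The members come from 4 hairpins in 2 clusters, each pairing a miR-193 gene with a miR-365 gene. MIR193B and MIR365A lie on chromosome 16 with 5235 bases between the hairpins, both in introns of the long noncoding RNA gene MIR193BHG. MIR193A and MIR365B lie on chromosome 17 with 15327 bases between them. MIR365B overlaps an exon of the long noncoding RNA gene MIR365BHG, and MIR193A overlaps no other annotated gene (GENCODE release 44). The mature sequences are shown because the arms of a hairpin differ in both seed and base composition. They are taken from RefSeq (GRCh38.p14), run 5′ to 3′ with the seed in capitals, and all lie on the plus strand.
hsa-miR-193a-5p (chr17:31560016-31560037): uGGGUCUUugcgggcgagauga
hsa-miR-193b-5p (chr16:14303980-14304001): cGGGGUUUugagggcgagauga
hsa-miR-365a-5p (chr16:14309300-14309322): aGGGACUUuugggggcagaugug
hsa-miR-365b-5p (chr17:31575439-31575460): aGGGACUUucaggggcagcugu
hsa-miR-193a-3p (chr17:31560050-31560071): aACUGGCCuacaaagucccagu
hsa-miR-193b-3p (chr16:14304017-14304038): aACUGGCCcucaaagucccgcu
hsa-miR-365a-3p (chr16:14309340-14309361): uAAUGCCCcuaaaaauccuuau

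The 7 members hold 5 different seeds. The 3p arms of miR-193a and miR-193b share a seed, and so do the 5p arms of miR-365a and miR-365b, whereas the 5p arms of miR-193a and miR-193b do not. Among 2281 listed miRNAs with a RefSeq sequence, the 1 non-member with a member's seed was hsa-miR-365b-3p (chr17:31575478-31575499), whose mature sequence is identical to that of miR-365a-3p. Its counts equalled those of miR-365a-3p in 5 of 6 libraries and differed by 2 in the other, so the 3p product of the miR-365 genes cannot be assigned to one locus. Counted from 1 at the 5′ end, miR-193a-5p and miR-193b-5p matched at 18 of 22 positions and differed by U1C, U5G, C6U and C11A, the miR-193a base being given first. The 3p arms of miR-193a and miR-193b also matched at 18 of 22 positions, with U9C, A10U, A20G and G21C. The 5p arms of miR-365a and miR-365b matched at 19 of 22 positions, with U10C, G11A and A19C. The mapping settings in the study's methods allowed 1 mismatch, fewer than separate any of these pairs over the full length. The submitters' processing notes name another aligner, so whether that limit held for these counts is not known.

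The miR-193b and miR-193a hairpins are shown in full, with the 5p and then the 3p arm in capitals, because they are relatives in which the input libraries held mostly opposite arms. The MIR193B hairpin spans chr16:14303967-14304049 and the MIR193A hairpin spans chr17:31559996-31560083.
MIR193B: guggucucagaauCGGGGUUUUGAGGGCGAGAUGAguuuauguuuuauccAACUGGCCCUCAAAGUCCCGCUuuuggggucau
MIR193A: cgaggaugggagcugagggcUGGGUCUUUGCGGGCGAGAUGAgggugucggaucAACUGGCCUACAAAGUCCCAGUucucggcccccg

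The input libraries held 16466178 to 19628046 counts and the m7G-RIP libraries 1654102 to 3105129, m7G-RIP replicate 3 being the shallowest. Levels below are CPM, counts divided by library size, with the size scaled by trimmed mean of M-values (TMM) factors. These factors ran from 0.650 to 0.705 in input and from 1.33 to 1.64 in m7G-RIP. Of all 800 miRNAs, 40.1% were called enriched in m7G-RIP and 38.1% were called depleted, where called means an adjusted p (edgeR, Benjamini-Hochberg) under 0.05. Because so many miRNAs moved in each direction, a direction relative to the other miRNAs depends on the scaling, whereas a ratio of the arms of one hairpin within a library does not. An intestinal and an epithelial miRNA, chosen after their values were seen, were abundant in the input of these cells. hsa-miR-192-5p ran from 51291 to 59561 CPM and hsa-miR-200c-3p from 20107 to 21461 CPM. Some miRNAs of neither kind held more input counts than either, and other intestinal and epithelial miRNAs held fewer. In these bulk RNA samples, fewer cells containing a miRNA and less of it per cell cannot be told apart.

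All 4 of the 5p members were higher in m7G-RIP than in input, and all 3 of the 3p members were lower. No member's groups overlapped in TMM-scaled CPM. Of all 800 tested miRNAs 41.4% had every m7G-RIP library above every input library and 40.8% had every one below. With counts divided by library totals instead, the groups of miR-193a-3p and of miR-365a-3p overlapped. The call rule placed the 4 5p arms among the enriched miRNAs and the 3 3p arms among the depleted ones, beside the 40.1% and 38.1% of all tested miRNAs given above. The median log2 enrichment (m7G-RIP over input) was 2.35 over the 5p members and −1.99 over the 3p members, against 0.16 over all tested miRNAs. Nothing about the clusters is read from these counts, since the members were chosen on this contrast.

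**Figure D1:**
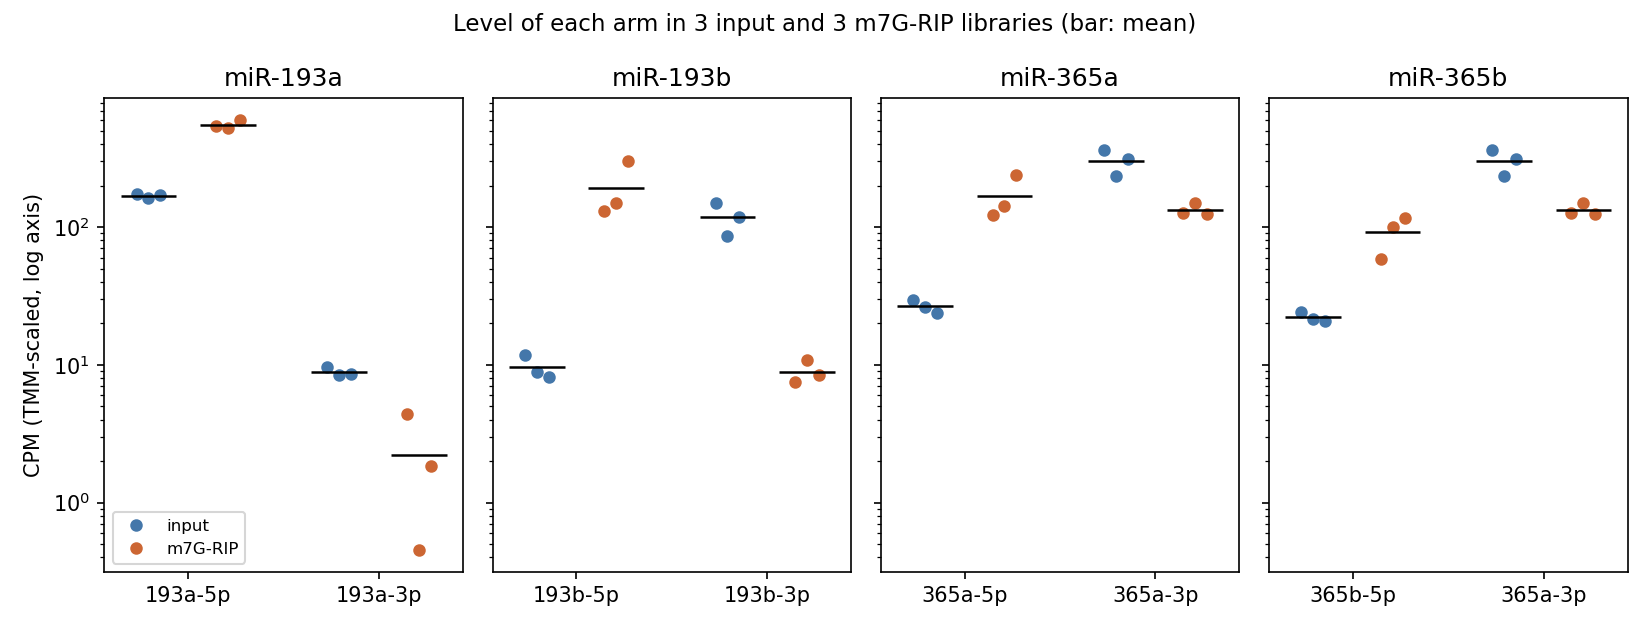
Level of each of the 7 members in each library (CPM, log axis), with 3 input and 3 m7G-RIP libraries as points and the group mean as a bar. The 5p arms lie higher in every m7G-RIP library than in any input library, and the 3p arms lie lower.

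Among the 5p arms, hsa-miR-193b-5p stood furthest from input. It was at 11.8, 8.85 and 8.12 CPM in input replicates 1, 2 and 3, and at 131, 149 and 301 CPM in the m7G-RIP libraries in the same order. It was scarce in every input library and far more abundant in every m7G-RIP library, with replicate 3 well above the other two. The group means were 9.58 ± 1.93 and 194 ± 93.5 CPM (SD, n = 3), a 20.2-fold difference of means. Its log2 enrichment was 4.33 with a standard error of 0.32, rank 24 of 800 from the most enriched. Without m7G-RIP replicate 3 it was 3.78.

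hsa-miR-193a-5p, the corresponding arm of the other miR-193 gene, was the more abundant 5p arm in input. Input libraries held 173, 161 and 172 CPM, and m7G-RIP libraries 539.7, 519.7 and 603 CPM. The libraries within each group lay close together and the groups were far apart. Its means were 169 ± 6.67 and 554 ± 43.4 CPM (SD, n = 3), and its log2 enrichment was 1.71 with a standard error of 0.14. The log2 enrichment of miR-193b-5p was higher by 2.62 than that of miR-193a-5p. In counts, the log2 ratio of miR-193b-5p to miR-193a-5p went from −4.16 ± 0.26 in input to −1.62 ± 0.55 in m7G-RIP (SD, n = 3), so miR-193a-5p remained the more abundant of the pair in every library.

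The 5p arms of the miR-365 genes, which have the same seed, had similar input levels and both were higher in m7G-RIP. hsa-miR-365a-5p was at 29.8, 26.3 and 23.7 CPM in input and at 122, 142 and 238 CPM in m7G-RIP. hsa-miR-365b-5p was at 24.1, 21.6 and 20.9 CPM in input and at 59.0, 99.5 and 117 CPM in m7G-RIP. For each arm every m7G-RIP library exceeded every input library, and the m7G-RIP libraries spread more widely than the input libraries. The log2 enrichment was 2.65 with a standard error of 0.25 for miR-365a-5p and 2.04 with a standard error of 0.25 for miR-365b-5p. Within a library, the log2 ratio of miR-365a-5p to miR-365b-5p counts was 0.26 ± 0.06 in input and 0.86 ± 0.30 in m7G-RIP (SD, n = 3). Its lowest m7G-RIP value, 0.51, lay above its highest input value, 0.30.

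Among the 3p arms, hsa-miR-193b-3p was the most depleted. Its input level was 149.8, 86.4 and 118 CPM, and its m7G-RIP level 7.53, 10.8 and 8.47 CPM. All m7G-RIP libraries lay close together and far below the lowest input library. The means were 118 ± 31.7 and 8.94 ± 1.69 CPM (SD, n = 3), 13.2-fold apart, and the log2 enrichment was −3.71 with a standard error of 0.26.

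hsa-miR-193a-3p, with the same seed, was scarce in both groups. It was at 9.72, 8.46 and 8.55 CPM in input, from 98 to 114 counts. The m7G-RIP libraries held 18, 2 and 5 counts, or 4.37, 0.450 and 1.84 CPM. The input libraries were nearly equal, while the m7G-RIP libraries differed from each other more than their counts' error. The exact 95% Poisson interval was 2.59 to 6.91 CPM for m7G-RIP replicate 1 and 0.0545 to 1.63 CPM for replicate 2, which covers counting error only. The log2 enrichment of −1.99, with a standard error of 0.53, depended on which library was kept: it was −3.17 without m7G-RIP replicate 1 and −1.59 without m7G-RIP replicate 2. It also rested on the scaling, at −0.94 (total counts in place of TMM factors) or −1.16 (upper quartile), and neither of these was called.

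hsa-miR-365a-3p was the most abundant member in input. It was at 363, 234 and 310.5 CPM in input and at 126, 150.2 and 125 CPM in m7G-RIP. The lowest input library was above the highest m7G-RIP library, with the proportionally narrowest gap of the 3p members. The means were 302 ± 65.0 and 134 ± 14.3 CPM (SD, n = 3), and the log2 enrichment was −1.18 with a standard error of 0.18. That depletion and the gap between the groups rested on the scaling too. By total counts the log2 enrichment was −0.09 and by the upper quartile −0.35, and neither was called.

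**Figure D2:**
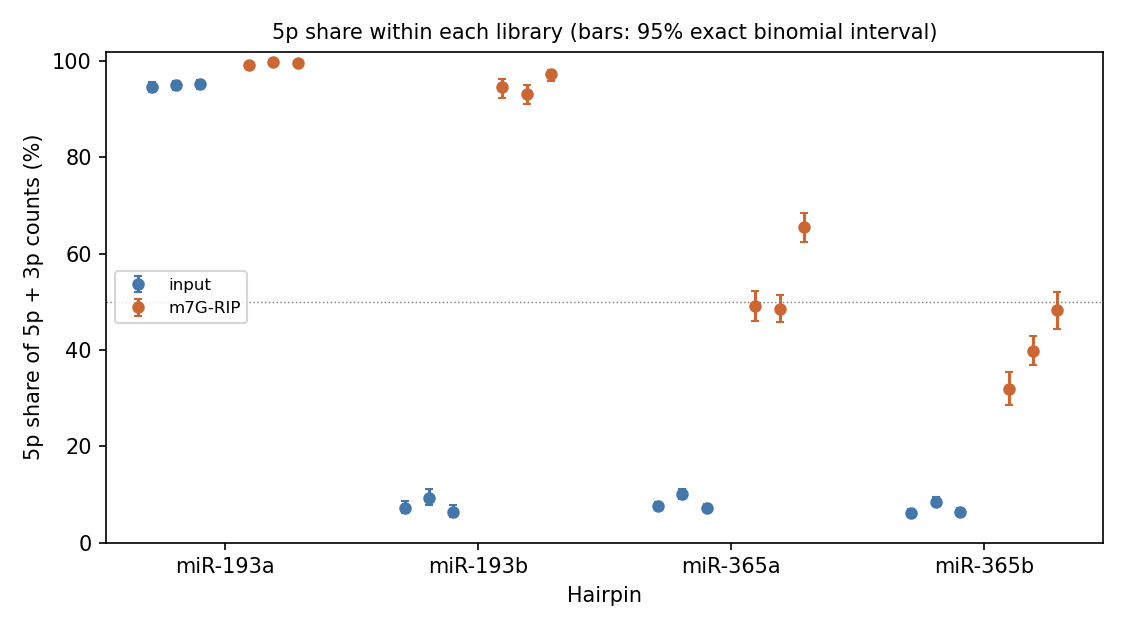
Share of the 5p arm among the counts of both arms of each hairpin (percent), with input and m7G-RIP libraries as points and 95% Clopper-Pearson intervals as bars. The miR-193a shares lie at 94.7% to 99.9% in both groups, while miR-193b moves from at most 9.29% in input to at least 93.2% in m7G-RIP, and in m7G-RIP the miR-365 hairpins lie lower, at 31.9% to 65.5%.

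The use of arms within each hairpin, which needs no scaling between libraries, separated the groups in all 4 hairpins, with a higher 5p share in every m7G-RIP library. That was so in 101 of 194 hairpins with both arms tested (52.1%). In miR-193b the 5p arm made up 7.28%, 9.29% and 6.43% of the counts of both arms in input replicates 1 to 3 and 94.6%, 93.2% and 97.3% in m7G-RIP. The arm that was the minor product in every input library was the major one in every m7G-RIP library. The 95% Clopper-Pearson interval was 6.15% to 8.55% in input replicate 1 and 92.4% to 96.3% in m7G-RIP replicate 1, from 1895 and 569 counts. The log2 ratio of 5p to 3p counts was −3.61 ± 0.29 in input and 4.35 ± 0.71 in m7G-RIP (SD, n = 3), a difference of 7.96, or 249-fold.

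In miR-193a the 5p arm was already the major product in input. It held 94.7%, 95.01% and 95.3% of the counts in input and 99.2%, 99.9% and 99.7% in m7G-RIP. The share was close to its upper limit in both groups, but the groups did not overlap. The log2 ratio of the arms was 4.25 ± 0.09 in input and 8.49 ± 1.62 in m7G-RIP (SD, n = 3), a difference of 4.24. The wide spread in m7G-RIP goes with the 2 to 18 counts of miR-193a-3p there.

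In the miR-365 hairpins the 3p arm was the major product in input. The 5p arm of miR-365a held 7.58%, 10.1% and 7.10% of the counts in input and 49.2%, 48.6% and 65.5% in m7G-RIP. The m7G-RIP libraries thus held about as much of one arm as of the other, or more of the 5p arm in replicate 3. The log2 ratio of the arms went from −3.49 ± 0.30 to 0.27 ± 0.57 (SD, n = 3), a difference of 3.76. With miR-365b-5p over the same shared 3p count, the 5p share was 6.23%, 8.47% and 6.29% in input and 31.9%, 39.9% and 48.2% in m7G-RIP, and the log2 ratio differed by 3.15. Since each of these ratios sets 1 locus against the 3p count of both, the 5p arms were also summed, which gave a 5p share of 14.2 ± 2.48% in input and 64.9 ± 7.95% in m7G-RIP (SD, n = 3).

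The arms were compared between genes of one cluster as well. On chromosome 16, the log2 ratio of miR-193b-5p to miR-365a-5p counts was −1.49 ± 0.13 in input and 0.17 ± 0.15 in m7G-RIP (SD, n = 3). The corresponding ratio of miR-193b-3p to miR-365a-3p was −1.37 ± 0.08 in input and −3.92 ± 0.14 in m7G-RIP. These ratios varied less among the libraries of a group than the levels of the arms did (on the log2 scale), and the order of the 3 libraries was the same for both arms in 3 of the 4 cases, all but the 3p arms in m7G-RIP. m7G-RIP replicate 3 was the highest m7G-RIP library for all 4 of the 5p members, and input replicate 2 was the lowest input library for all 3 of the 3p members.

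**Figure D3:**
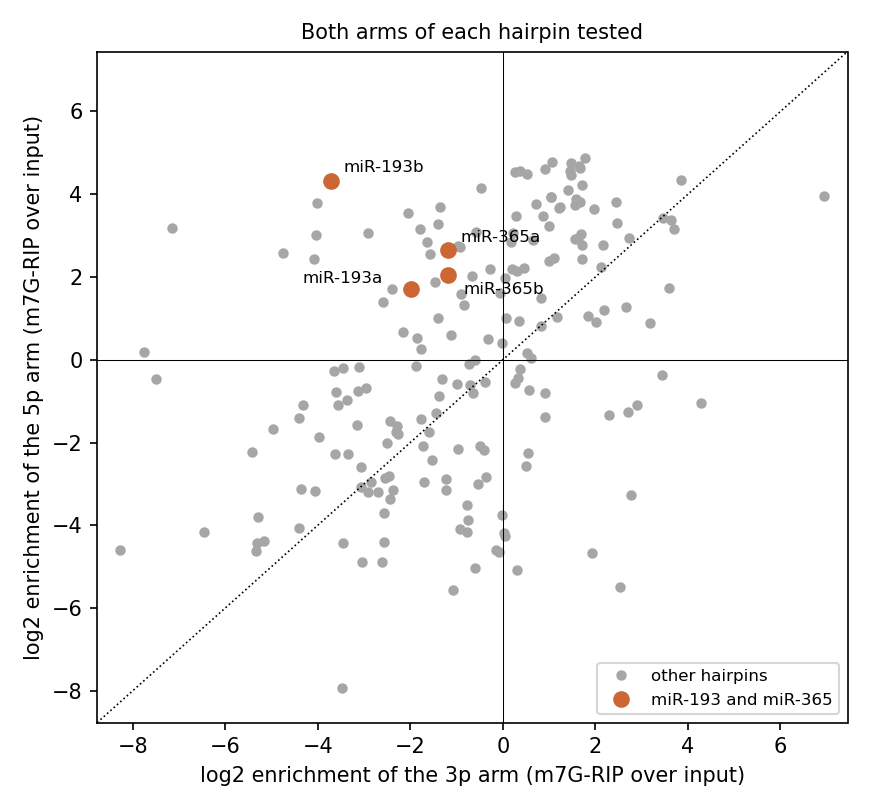
Log2 enrichment of the 3p arm (horizontal axis) against that of the 5p arm (vertical axis) for 194 hairpins with both arms tested, the hairpins of the miR-193 and miR-365 genes being named. These 4 hairpins lie in the upper left, with a 5p arm above 0 and a 3p arm below 0, and miR-193b lies farthest out of the 4.

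Many other hairpins had arms that differed. Among 194 hairpins with both arms tested, the 5p arm had the higher log2 enrichment in 125 and the 3p arm in 69, and the median difference of 5p minus 3p was 0.91 (quartiles −0.79 and 2.84). In 25 hairpins, 12.9%, the 5p arm was called enriched and the 3p arm depleted, and in 11 it was the reverse. These 25 include the hairpins of miR-193a, miR-193b, miR-365a and miR-365b. By the size of the fitted difference, miR-193b ranked 2 of 194 (8.04), miR-365a 36 (3.82), miR-193a 41 (3.71) and miR-365b 54 (3.22).

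The hairpins nearest to miR-193b by the pair of log2 enrichments were miR-664a at 3.02 for 5p and −4.05 for 3p, miR-1908 at 3.06 and −2.91, and miR-6765 at 3.54 and −2.05, the last with a 3p arm that was not called. Those nearest to miR-193a were let-7a at 1.71 and −2.39, miR-25 at 1.87 and −1.47, and miR-4742 at 1.40 and −2.59. The let-7 family is known as a differentiation-linked tumour suppressor family. Arms were paired by name, so the counts under let-7a may come from more than 1 gene. They were mainly of the 5p arm in these inputs, as those of miR-193a were.

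The sequences printed above differ by arm in a feature, their runs of G. The choice of members did not use this feature directly. It was made with the enrichments known, however, and across miRNAs these went with the number of G, as given below. Each of the 4 5p members contains 2 runs of at least 3 G, and none of the 3p members contains one. The number of G was 10 in miR-193a-5p, 11 in miR-193b-5p, 11 in miR-365a-5p and 9 in miR-365b-5p, against 4 in each miR-193 3p arm, 1 in miR-365a-3p and a median of 6 over 714 tested miRNAs with a sequence. The longest run of G was 5 in miR-365a-5p, 4 in miR-193b-5p and miR-365b-5p, and 3 in miR-193a-5p. A G-score, in which G counts up and C counts down according to the length of their runs, was 0.864 to 1.30 in the 5p members and −0.864 to −0.409 in the 3p members.

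**Figure D4:**
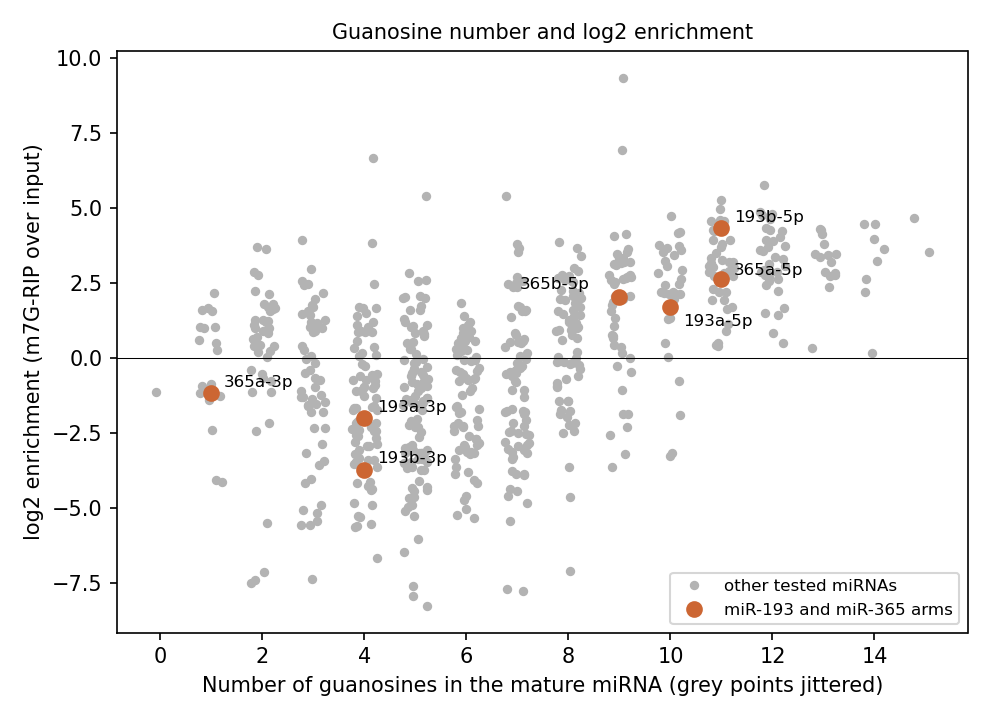
Number of G in the mature sequence (horizontal axis) against log2 enrichment (vertical axis) for 714 tested miRNAs, with the 7 members named. The 5p members lie at 9 to 11 G and above 0, and the 3p members at 1 to 4 G and below 0.

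The same feature was then counted in the other miRNAs, a list defined after the members' sequences had been seen. Of 75 non-members with at least 2 runs of 3 G, 66 were called enriched and 1 depleted, with a median log2 enrichment of 3.05. Of 182 with exactly 1 such run, 100 were called enriched and 50 depleted, with a median of 1.18. Of 453 with none, the 3 3p members included, 120 were called enriched and 217 depleted, with a median of −0.76. Over all 714, 40.6% were called enriched. The count filter could be passed through either group alone, so a miRNA scarce in input was tested only if its m7G-RIP counts were high enough. One miRNA with 2 such runs held 5 counts over the 3 input libraries. For such miRNAs an enriched call was close to fixed in advance, and their share of each list was not counted.

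Across the 714 miRNAs, Spearman's rho between the number of G and the log2 enrichment was 0.49. Across 169 hairpins with both sequences, rho between the arm difference in G and the arm difference in log2 enrichment was 0.57. These are descriptions across miRNAs measured in the same 6 libraries, and miRNAs are not independent replicates. Input abundance also went with the enrichment, with a rho of −0.56 over 800 miRNAs. Input is the divisor in each enrichment, and miRNAs scarce in input were tested only with enough m7G-RIP counts. A negative rho is thus partly built in. The part of input abundance in the relation to G was not tested.

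All 5p members had more G and a higher log2 enrichment than any 3p member. Within the 5p arms, or within the 3p arms, more G did not always go with a higher log2 enrichment. miR-365a-5p and miR-193b-5p both contain 11 G, with log2 enrichments of 2.65 and 4.33, and miR-365a-3p with 1 G was less depleted than miR-193b-3p with 4. The hairpin difference in G, 5p minus 3p, was 10 in miR-365a, 8 in miR-365b, 7 in miR-193b and 6 in miR-193a, an order that the differences in log2 enrichment did not follow. The whole hairpins were searched for 4 stretches of at least 2 G with 1 to 7 bases of any kind between them. A base between could itself be G, so 1 long run could count as 2 stretches. The form was found in MIR193A and MIR365A and not in MIR193B and MIR365B. In MIR365A it was found only by splitting a run of 5 G. By the same rule it was found in 175 of 626 RefSeq hairpins (28.0%) of 83 to 111 bases. This is a match of letters and says nothing of a fold.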

How the data were processed

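Total RNA of Caco-2 cells was profiled as small RNA libraries (NEBNext kit, single-end, stranded), 3 from input and 3 after m7G immunoprecipitation. The deposited counts are raw counts per mature miRNA: the authors trimmed reads (Trimmomatic), mapped them to GRCh38 and counted them with featureCounts on miRBase 22. The methods name STAR with at most 1 mismatch and 10 loci per read, while the submitters' processing notes name Bowtie2. How reads of several loci were counted is not given in the sources used here, which bears on the miR-365 3p arms.

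Counts were tested with edgeR 4.0.16 (R 4.3.3) after filterByExpr and TMM scaling, with Benjamini-Hochberg adjustment over 800 miRNAs, on a script tested on simulated data. Enrichments are fitted log2 ratios. DESeq2 1.42.0, other scalings, filters, a replicate block and leaving out each library were alternatives. Groups and replicate numbers came from the labels, which do not say whether replicates were separate cultures, so p-values measure the spread between these samples. Intervals cover counting error only, since no molecular identifiers were counted. Sequences and coordinates are from RefSeq (GRCh38.p14), and the count table holds no coordinates. The members and lists were chosen with earlier results of these data known. Named miRNAs were the members and miR-365b-3p as the sharer of a seed. Named hairpins were the 3 nearest to miR-193b and to miR-193a with at least 10 input counts per arm. Outside this rule, 2 miRNAs abundant in input were named after their values were seen, which is no check of the cell type.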

Additional observations from a re-analysis of the deposited data

How the results depend on the processing

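The number of 5p members called enriched was 4 under each alternative run. The number of 3p members called depleted was 3, except that total counts left 1 and upper-quartile factors also 1, where miR-193b-3p kept the call. These scalings moved the median log2 enrichment of all tested miRNAs by 1.09 and 0.82, and DESeq2's size factors moved it by −0.34. It was 2 under each of the stricter filters on low counts, where miR-193a-3p was not tested. The split of all enriched and depleted calls went from 321 and 305 to 442 and 198 (total counts), 281 and 342 (DESeq2's size factors in edgeR) or 418 and 227 (upper quartile). DESeq2 itself gave 274 and 337, and at least 10 counts in every library gave 182 and 175 of 426 tested. An average log2 CPM of at least 5 gave 110 and 124 of 267 tested.

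Another scaling or filter changes the size of a library for both arms alike, so it could hardly move an arm difference. Leaving out 1 of 3 libraries shifts a group mean by less than that group's SD, whatever the values. A move within the SD was thus largely fixed in advance. Each of 54 alternative values of the arm differences, both kinds included, kept its direction and moved by less than the SD between replicates. Of 96 alternative log2 enrichments of members, 77 did so, 19 moved further and 0 changed sign. Leaving out each library gave 4 to 4 enriched and 3 to 3 depleted members. It gave arm differences of 3.19 to 4.87 for miR-193a, 7.54 to 8.36 for miR-193b, 3.44 to 4.003 for miR-365a and 2.97 to 3.41 for miR-365b. With the 5p arms of both miR-365 loci summed, an alternative chosen after seeing the data, the log2 ratio of 5p to 3p counts in m7G-RIP went from −0.60 (miR-365b) to 0.90. With the replicate number as a replicate block, the counts were 4 and 3, the miR-193b difference was 7.92, and 296 and 295 miRNAs were called. The deviations of same-numbered libraries correlated at −0.03 to 0.06, and 2 of 6 libraries correlated best with their own number. With 3 libraries in each group, this cannot tell whether same-numbered libraries came from the same RNA. Depth limits miR-193a-3p most, with as few as 2 counts.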
